A study of Bos taurus with 9 samples.

Results

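The 10 genes described here are transcriptional targets of ERK signaling, and most of them act back on the pathway. They are the MAPK phosphatases DUSP4, DUSP5 and DUSP6, the Sprouty and SPRED inhibitors SPRY2, SPRY4, SPRED1 and SPRED2, the ETS transcription factors ETV4 and ETV5, and PHLDA1. They were taken by gene name from the 20679 genes in the deposited tables of counts and TPM (a transcript level scaled by gene length and by library), and all 10 were found. Bovine uterine gland fragments from stage III uteri collected at an abattoir were cultured for 5 days in growth factor-reduced Matrigel, and 3 libraries were sequenced in each of 3 groups. The CYST group received no EGF and formed cysts. The MAT group received EGF and formed uterine gland-like (UG-LIKE) structures, and the MAT + COL group received EGF with 0.5 mg/ml bovine collagen I added to the Matrigel. The study used EGF at 5 ng/ml, a dose that the labels do not state, and the medium of all groups held insulin, transferrin, sodium selenite, ascorbic acid and BSA. Replicates were numbered 1 to 3 in each group, but the labels do not say that they came from separate animals. The paper speaks of individuals where it describes how the MAT and MAT + COL libraries clustered. If the replicates were not separate animals, the p-values measure only the spread between these samples, which may be technical.

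EGF binds EGFR and activates RAS, RAF, MEK and ERK in turn, and active ERK induces genes that restrain the same cascade. DUSP6 removes the activating phosphates from ERK in the cytoplasm, and DUSP4 and DUSP5 do so in the nucleus. Sprouty and SPRED proteins act further upstream, on RAS and RAF activation. ETV4 and ETV5, of the PEA3 subfamily, carry the signal to target genes in branching epithelia, and PHLDA1 is a pleckstrin homology-like domain protein induced by growth factors. The mRNA of these genes is widely used as a readout of ERK activity, and the comparison of MAT with CYST asks how it differed on day 5 of culture with EGF.

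The genes lay on different chromosomes of the ARS-UCD2.0 assembly except DUSP6 and PHLDA1, which were both on chromosome 5. DUSP6 was the most compact, at 19213736 to 19217415 on the minus strand, a region of 3.68 kb. PHLDA1 was listed at 5514123 to 5584854 on the minus strand of the same chromosome, a region of 70.7 kb. DUSP4 lay at 25678519 to 25693278 on the minus strand of chromosome 27. ETV4 was at 43446917 to 43462826 on the minus strand of chromosome 19. Of the genes considered here, no other one overlapped a member's listed region. Counts are totals over each gene and do not separate exons or isoforms.

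Between 6568968 and 17948600 reads were counted per library. The lowest totals were in MAT replicate 1 and CYST replicate 1, and the MAT + COL totals were high throughout (16665013 to 17948600). Counts came from amplified reads without molecular identifiers. The labels name epithelial cells, and 6 epithelial markers summed to 19100 to 21900 TPM in CYST, 31200 to 48600 in MAT and 31400 to 42900 in MAT + COL. The gland transcription factor FOXA2 was at 1.4 to 4.83, 1.84 to 12.4 and 1.31 to 5.67 TPM in the same order. All 8 stromal markers, DCN and COL3A1 among them, were detected in every group, with sums of 2020 to 4570 TPM in CYST, 755 to 3000 in MAT and 1900 to 3510 in MAT + COL. The 4 endothelial markers summed to 12.2 to 17.5, 8.26 to 24 and 13.7 to 26.1 TPM, the 4 leukocyte markers to 25.3 to 31.8, 19.3 to 48.3 and 27 to 31.5, and the 3 smooth muscle markers to 38.5 to 75.3, 21.8 to 44.1 and 38.7 to 42.3. The leukocyte marker CD3E was at 0 in all CYST libraries. In such bulk samples fewer cells of a type and less RNA per cell cannot be told apart, and the part of these markers in the values below was not tested.

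DUSP6 had by far the highest TPM of the 10 genes. Its TPM was 175, 280 and 112 in CYST replicates 1 to 3, 189, 149 and 296 in MAT, and 170, 148 and 312 in MAT + COL. The mean was 189 ± 85.2 (SD, n = 3) in CYST, 212 ± 76 in MAT and 210 ± 88.9 in MAT + COL, and the DUSP6 range did not overlap that of the next gene in any group. ETV4 came next in CYST at 31.5 ± 23.7 TPM and in MAT at 16.1 ± 6.48 TPM, and DUSP5 came next in MAT + COL at 23.5 ± 34.9 TPM. In CYST each of the genes from ETV4 down to DUSP4 overlapped its neighbour in the order of levels. In MAT the order was broken once more between SPRY4 (10.1 ± 1.63 TPM) and SPRED2 (6.71 ± 0.652 TPM), and in MAT + COL between SPRED1 (6.17 ± 1.03 TPM) and DUSP4 (2.88 ± 1.77 TPM). ETV5 and DUSP4 had the lowest mean levels in all 3 groups. This order depends on the gene lengths by which TPM is scaled. In CYST replicates 1 to 3 PHLDA1 had 1186, 1169 and 779 reads, against 1379, 4299 and 1138 for DUSP6.

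**Figure D1:**
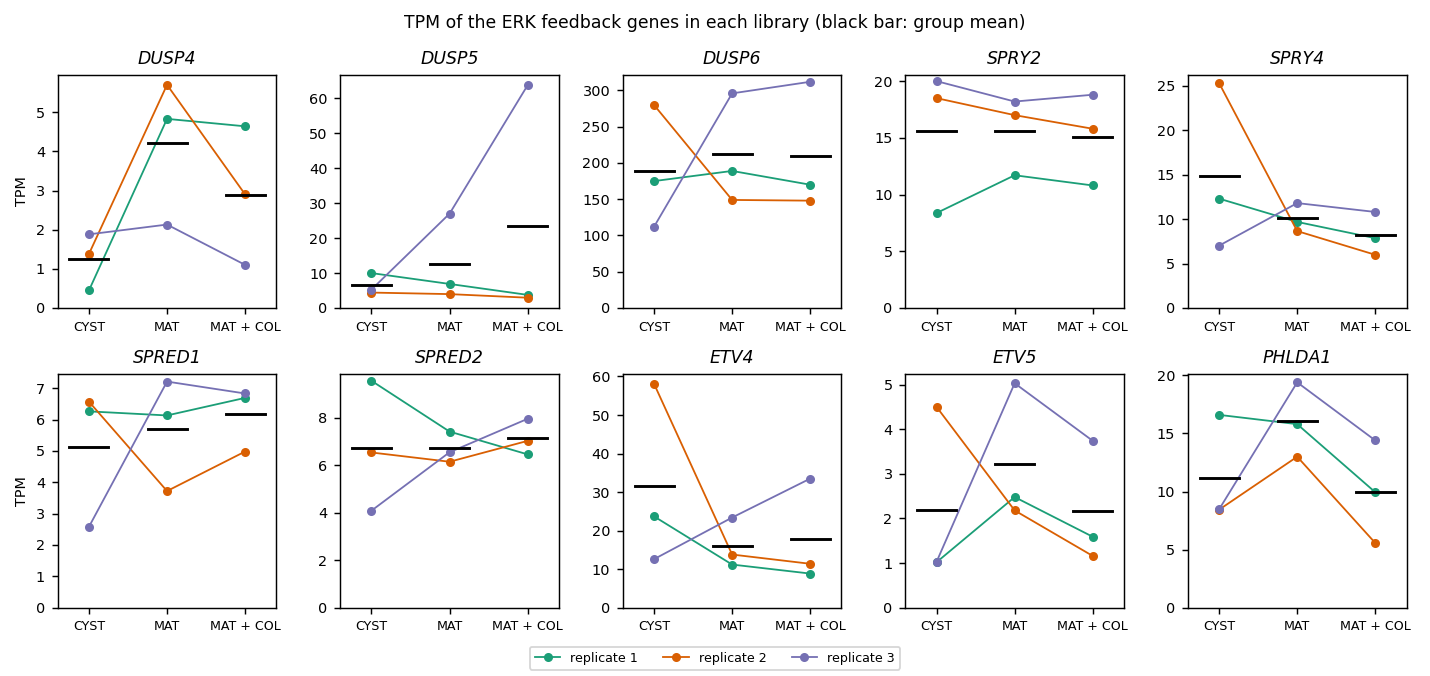
TPM of each gene (vertical axis, linear, from 0) in the 3 groups (horizontal axis). Points are libraries, lines join libraries with the same replicate number and black bars are group means. The lines of replicates 2 and 3 cross in DUSP6, ETV4, ETV5, SPRY4, SPRED1 and SPRED2, where CYST replicate 2 was above CYST replicate 3. They also cross in DUSP4, where CYST replicate 2 was below CYST replicate 3. The replicates keep their order in SPRY2.

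None of the 10 genes passed the test between MAT and CYST. With edgeR's quasi-likelihood test, 0 of 10 had an adjusted p under 0.05, where 1.79% of the 12074 genes tested were called, and 1 (DUSP4) had an unadjusted p under 0.05, where 20.7% of all genes did. With the replicate number as a block, which compares libraries within their number, 0 of 10 were called against 10.6% of all genes, and 2 (DUSP4 and PHLDA1) had an unadjusted p under 0.05 against 28% of all genes. DESeq2 also called 0 of 10, with and without the block. The median Log2FC of the 10 genes was 0.20 (0.18 with the block), beside 0.01 over all genes. The intervals were wide, so these data do not show that the genes were unaffected.

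Among the phosphatases, DUSP4 had the largest difference. Its TPM was 0.448, 1.38 and 1.88 in CYST and 4.83, 5.7 and 2.13 in MAT, so all MAT values lay above all CYST values, although replicate 3 was nearly level. DUSP4 was the only 1 of the 10 genes whose groups did not overlap, where 23.7% of the genes tested did not. The counts behind these levels were low, at 5, 30 and 27 reads in CYST and 42, 132 and 37 in MAT. The Log2FC was 1.68 ± 0.67 (SE), a fold of 3.21 with a 95% interval of 1.1 to 9.35, and the adjusted p in edgeR was 0.207. With both libraries of replicate number 3 left out and the block kept, the Log2FC was 2.67 and the adjusted p 0.0266, on 2 pairs. That fit called 1867 of 12164 genes. The DUSP4 Log2FC was 1.15 without number 1 (adjusted p = 0.478) and 1.55 without number 2 (0.458).

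DUSP6 and DUSP5 moved in different directions in different pairs. DUSP6 differed by 0.18, -0.79 and 1.30 in log2 CPM (counts scaled to library size) between MAT and CYST in replicates 1, 2 and 3. Its fitted Log2FC was 0.21 ± 0.34, with a 95% interval of -0.58 to 0.99 (edgeR adjusted p = 0.79). A 2-fold rise lay only just outside the interval of this fit, and other fits moved the value. With the block kept, it was 0.69 ± 0.30 without number 2 and -0.32 ± 0.23 without number 3. DUSP5 TPM was 9.98, 4.4 and 5.27 in CYST and 6.87, 3.96 and 27 in MAT. Only MAT replicate 3 stood above the CYST values. The Log2FC was 0.98 ± 0.72 (edgeR adjusted p = 0.488), and 0.54 ± 0.53 with the block (adjusted p = 0.558).

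The Sprouty and SPRED genes, which restrain RAS and RAF, centred near no difference. SPRY2 was at 8.37, 18.5 and 20 TPM in CYST and 11.7, 17 and 18.2 TPM in MAT. Replicate 1 was the lowest in both groups, and the Log2FC was -0.04 ± 0.38 (edgeR adjusted p = 0.97). SPRY4 was at 12.3, 25.3 and 7.01 TPM in CYST and 9.68, 8.65 and 11.8 TPM in MAT. Its Log2FC of -0.51 ± 0.38 (edgeR adjusted p = 0.488) rested on pairs that differed by -0.29, -1.42 and 0.65. SPRED1 was at 6.26, 6.57 and 2.58 TPM in CYST and 6.13, 3.72 and 7.21 TPM in MAT, and SPRED2 at 9.56, 6.54 and 4.09 and at 7.42, 6.15 and 6.55 TPM. Both groups overlapped for each gene, with a Log2FC of 0.19 ± 0.38 for SPRED1 and of 0.01 ± 0.33 for SPRED2 (edgeR adjusted p = 0.83 and 0.987).

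The PEA3 factors ETV4 and ETV5 had fitted differences of opposite sign. ETV4 was at 23.7, 58.1 and 12.6 TPM in CYST and 11.2, 13.8 and 23.4 TPM in MAT. It was lower in MAT in replicates 1 and 2 and higher in replicate 3, with pair differences of -1.02, -1.95 and 0.79 in log2 CPM. The Log2FC was -0.89 ± 0.50 (edgeR adjusted p = 0.362), and the value depended on the numbers in the fit. With the block and 1 number left out it was -1.53 without number 3 (adjusted p = 0.00954), -0.15 without number 2 (0.896) and -0.60 without number 1 (0.677). The fit without number 3 called 1867 of 12164 genes. ETV5 was at 1.02, 4.5 and 1.03 TPM in CYST and 2.48, 2.18 and 5.03 TPM in MAT. Here replicate 2 was the one lower in MAT, with pair differences of 1.28, -0.90 and 2.12, and the Log2FC was 0.61 ± 0.65 (edgeR adjusted p = 0.648). It was 0.07 without number 3 and 1.72 without number 2, with the block kept. A difference between ETV4 and ETV5 was not tested.

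PHLDA1 was at 16.6, 8.44 and 8.47 TPM in CYST and 15.8, 13 and 19.4 TPM in MAT. The lowest CYST values were well below all MAT values, but CYST replicate 1 lay among them. The Log2FC was 0.53 ± 0.30 (edgeR adjusted p = 0.364), and 0.57 ± 0.23 with the block (adjusted p = 0.147). The pairs differed by -0.01, 0.74 and 1.09 in log2 CPM.

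**Figure D2:**
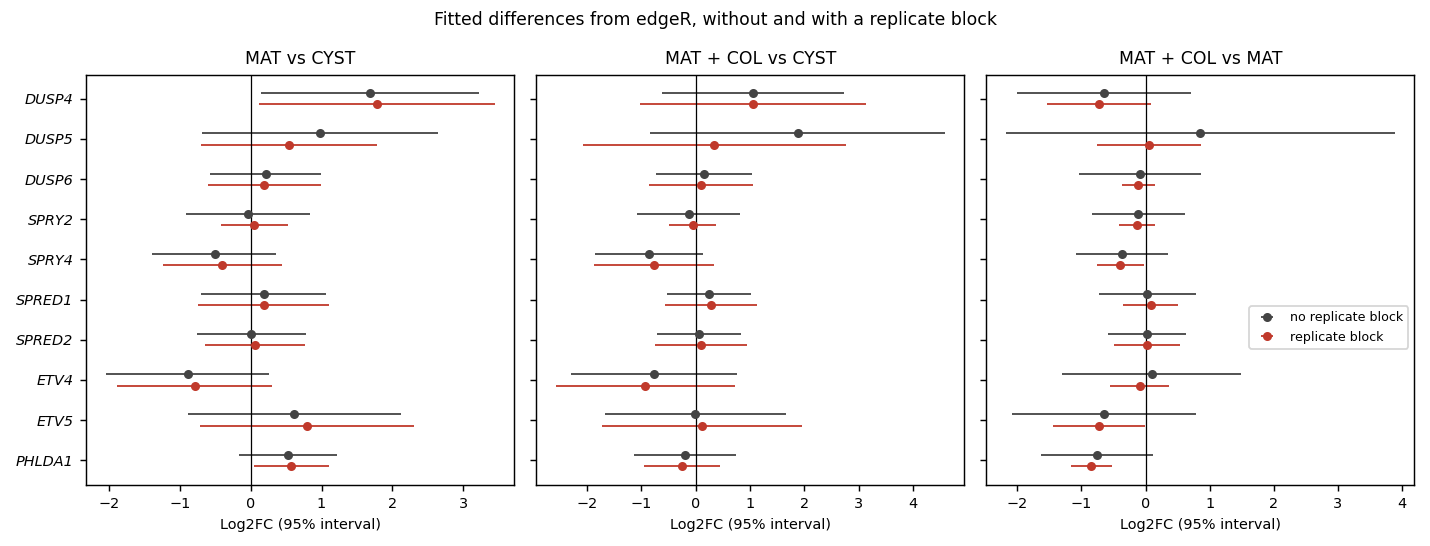
Log2FC of each gene with its 95% interval (horizontal axis) in the 3 comparisons, from edgeR without (dark) and with (red) the replicate block, positive where the first group named was higher. In MAT vs CYST the DUSP4 interval lies above 0 in both fits, and in MAT + COL vs MAT the blocked PHLDA1 interval, -1.17 to -0.52, is the one farthest from 0.

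The direction of the 10 genes varied from one replicate number to the next. In the MAT and CYST libraries numbered 3, 9 of 10 genes were higher in MAT, with a median difference of 0.94 in log2 CPM, where 53.3% of all genes were higher and their median was 0.06. In replicate 2, 3 of 10 were higher, with a median of -0.36, and in replicate 1, 5 of 10, with a median of 0.01. Only 1 of 10 genes (DUSP4) had the same direction in all 3 pairs, against 50.1% of all genes. The SD of the 3 pair differences had a median of 1.05 over the 10 genes and 0.42 over all 12858 genes kept over the 9 libraries. It was largest in DUSP4 (1.58), ETV5 (1.56), DUSP5 (1.45) and ETV4 (1.39), and small in SPRY2 (0.40) and SPRED2 (0.44). These are descriptions of 3 pairs, and an effect of replicate number on the EGF difference was not tested. The gene with most counts in CYST replicate 3 was FTH1, at 5.98% of the total. In CYST replicates 1 and 2 it was GRP, at 1.83% and 1.84%. The part of this difference between the CYST libraries in the pair differences was not tested.

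**Figure D3:**
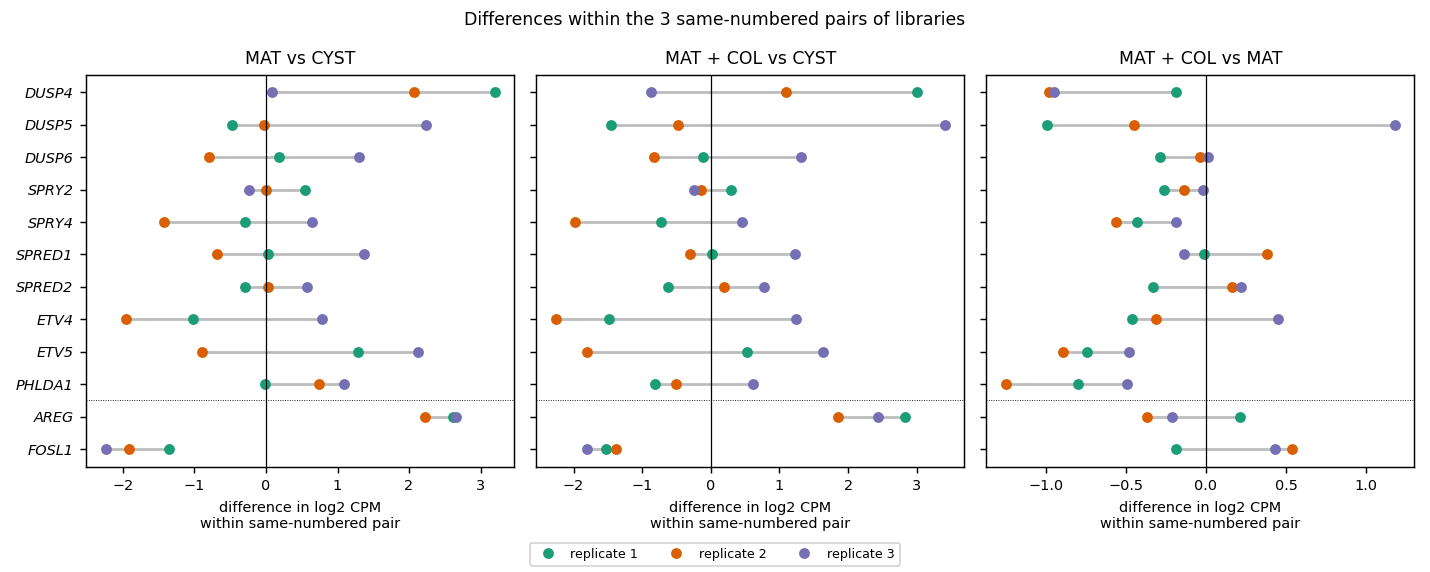
Difference in log2 CPM within each same-numbered pair of libraries (horizontal axis) for the 10 genes and, under the dotted line, AREG and FOSL1. In MAT vs CYST the replicate 3 points lie right of 0 for 9 of the 10 genes, while the 3 AREG points lie together between 2.22 and 2.65. The third panel has a narrower axis than the others.

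For collagen I, the comparison of MAT + COL with MAT asks what the added matrix changed in the presence of EGF. PHLDA1 was called in only 1 fit that kept all libraries. The 10 genes were chosen with earlier results of these data known, so its rank among all genes is not independent support. PHLDA1 fell from 15.8, 13 and 19.4 TPM in MAT to 9.94, 5.57 and 14.4 TPM in MAT + COL in DESeq2 with the replicate block, with an adjusted p of 0.00612. It was the only 1 gene that this fit called over the whole table, and the fit was added after the data had been seen. In edgeR with the block the Log2FC was -0.85 ± 0.15, a fold of 0.557 with a 95% interval of 0.444 to 0.698, and its unadjusted p of 0.000157 was the smallest of 12470 genes, but the adjusted p was 0.955. Without the block the Log2FC was -0.76 ± 0.37 and the adjusted p 1 in edgeR. PHLDA1 was lower in MAT + COL in 3 of 3 pairs, by -0.80, -1.25 and -0.49 in log2 CPM, although the groups overlapped because MAT + COL replicate 3 was above MAT replicate 2. With the block kept and 1 number left out, on 2 pairs, edgeR gave PHLDA1 a Log2FC of -1.03 without number 3 (adjusted p = 0.00712), -0.63 without number 2 (0.564) and -0.86 without number 1 (0.999).

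Across the whole table edgeR called 0% of genes between MAT + COL and MAT without the block and 0% with it, and 0 of the 10 genes. Unadjusted p-values under 0.05 numbered 51 over all genes without the block (0.409%) and 618 with it (4.96%), and among the 10 genes 0 without it and 3 with it (PHLDA1, SPRY4 and ETV5). SPRY4 had a blocked Log2FC of -0.40 ± 0.17 and ETV5 of -0.72 ± 0.32 (edgeR adjusted p = 0.955 for both). SPRY4 was at 7.85, 5.98 and 10.8 TPM in MAT + COL, and ETV5 at 1.59, 1.16 and 3.74 TPM. For both genes each MAT + COL value lay under the MAT value with the same number. DUSP4, SPRY2, SPRY4, ETV5 and PHLDA1 were lower in all 3 pairs, which is 5 of 10 genes, where 13.2% of all genes were lower in all pairs. In the same blocked fit all 6 epithelial markers were lower in MAT + COL, with a median Log2FC of -0.16, and all 8 stromal markers higher, with a median of 0.48. Of the stromal markers 5 had an unadjusted p under 0.05 and 0 were called, and the part of these markers was not tested. The groups overlapped for all 10 genes, and 3.57% of the genes tested did not overlap.

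DUSP4 was lower in MAT + COL than in MAT in 3 of 3 pairs, by -0.19, -0.98 and -0.95 in log2 CPM. Its Log2FC was -0.65 ± 0.58 without the block (edgeR adjusted p = 1) and -0.73 ± 0.36 with it (adjusted p = 0.955). The fitted values of DUSP6, SPRY2, SPRED1 and SPRED2 lay nearer 0. DUSP6 had a blocked Log2FC of -0.11 ± 0.11, with a 95% interval of -0.36 to 0.15. SPRY2 had -0.14 ± 0.13, SPRED1 0.08 ± 0.19 and SPRED2 0.02 ± 0.23 on the same scale. DUSP5, the nuclear ERK phosphatase, was at 3.74, 2.93 and 63.8 TPM in MAT + COL, and the count in replicate 3 was 1210 reads against 73 and 59. It was lower than in MAT in replicates 1 and 2 and higher in replicate 3, by -0.99, -0.45 and 1.18 in log2 CPM. Its Log2FC was 0.85 ± 1.29 without the block and 0.05 ± 0.36 with it, while the SD of its 3 pair differences was 1.13.

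In MAT + COL against CYST, 0 of 10 genes were called by edgeR, where 1.49% of 12509 genes were, and 0 of 10 with the block, where 5.26% were. This comparison shares the CYST libraries with one of the comparisons above and the MAT + COL libraries with the other. The groups overlapped for all 10 genes, against 24.7% of genes that did not overlap, and 0 of 10 genes had the same direction in all pairs, against 49.7% of all genes. Without the block 5 of 10 genes were fitted higher and 5 lower, from -0.86 to 1.88, with a median Log2FC of 0.03. All 3 phosphatases were fitted higher, with a median of 1.05, or 0.34 with the block. SPRY4 had a Log2FC of -0.86 ± 0.42 (edgeR adjusted p = 0.291), the lowest without the block, and ETV4 was the lowest with it, at -0.93 ± 0.68. ETV4, at 8.86, 11.4 and 33.5 TPM in MAT + COL, had a Log2FC of -0.77 ± 0.66 (edgeR adjusted p = 0.542) with pair differences of -1.48, -2.26 and 1.24. DUSP5 had the widest spread, with pair differences of -1.45, -0.48 and 3.41. DUSP4, at 4.64, 2.9 and 1.1 TPM in MAT + COL, differed by 3.01, 1.09 and -0.87. With replicate number 3 left out and the block kept, edgeR called SPRY4 (Log2FC of -1.38, adjusted p = 0.021), ETV4 (-1.91, adjusted p = 0.00361) and PHLDA1 (-0.68, adjusted p = 0.0333). This fit called 2406 genes over the whole table, where the blocked fit of all numbers called 658. Without number 1 or number 2 edgeR called 0 of 10.

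Over all 9 libraries the 10 genes divided by how much of their variation followed the group or the replicate number. For SPRY2, 90.7% of the variance of log2 CPM lay between replicate numbers and 1.43% between groups. DUSP5 had 60.6% between numbers and 3.18% between groups. DUSP4 was the opposite, with 50% between groups and 5.4% between numbers, and PHLDA1 was split, at 38.1% and 39.3%. The medians over the 10 genes were 14.9% for group and 21.4% for number, beside 29.9% and 32% over all genes.

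Several of the 10 genes moved together over the 9 libraries. DUSP6 and ETV5 had a Pearson correlation of 0.89 in log2 CPM, as had SPRY4 and ETV4. DUSP4 went the other way from ETV4, with a correlation of -0.67. Among the other 12857 genes, those most like DUSP6 were NAB2 (r = 0.931), a corepressor of EGR transcription factors, ANKRD28 (0.928) and KDELR3 (0.926). ANKRD28 was also the gene most like ETV5 (r = 0.940). The genes most like PHLDA1 were ZDHHC21 (0.956), CHMP4B (0.944) and ARF3 (0.923), and those most like ETV4 were CSTF2 (0.946), TNS1 (0.928) and INTS2 (0.917). For SPRY4 they were DOT1L (0.928), MYO5A (0.924) and TMEM160 (0.916), and for DUSP4 they were TCEANC2 (0.984), RAB40B (0.955) and MRNIP (0.947). The libraries share culture, depth and replicate number, and the best of 12857 correlations over 9 points is high by selection.

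Close relatives of the 10 genes were also measured. DUSP7, a cytoplasmic ERK phosphatase like DUSP6, was at 1.73, 2.26 and 1.77 TPM in CYST and 5.28, 2.51 and 5.28 TPM in MAT. The groups did not overlap, but the Log2FC of 1.16 ± 0.47 did not pass the test (edgeR adjusted p = 0.214). DUSP1, a phosphatase of several MAP kinases, was at 245, 32.9 and 467 TPM in CYST and 356, 64.7 and 383 TPM in MAT, so that replicate 2 was the low one in both groups. DUSP10, which acts mainly on JNK and p38, had a Log2FC of -0.04 ± 0.37, and SPRY1 of 0.40 ± 0.26 (edgeR adjusted p = 0.967 and 0.429). SPRED3 and ETV1 had too few counts to be tested in MAT against CYST. SPRY3 fell in MAT in edgeR with the block, with a Log2FC of -3.31 ± 0.84 (adjusted p = 0.0468). Without the block the Log2FC was -3.24 ± 0.87 in edgeR (adjusted p = 0.0903) and -3.25 in DESeq2 (adjusted p = 0.000925). SPRY3 was at 108, 233 and 50 counts in CYST and at 0, 23 and 22 counts in MAT.

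Of the 70 other ERK pathway genes listed, 63 were tested between MAT and CYST. In edgeR 1 was called without the block, beside 1.79% of all genes, and 8 with it, 4 higher and 4 lower, beside 10.6% of all genes. The called gene in both fits was AREG, an EGFR ligand that ERK signaling induces. AREG was at 15.3, 24.1 and 6.81 TPM in CYST and 90.6, 104 and 46.9 TPM in MAT, with no overlap. It rose with a Log2FC of 2.42 ± 0.43 (edgeR adjusted p = 0.0448), and 2.47 ± 0.21 with the block (adjusted p = 0.00173). The call was lost in the unblocked fit without CYST replicate 1 (adjusted p = 0.166), CYST replicate 2 (0.0877), MAT replicate 1 (0.134) or MAT replicate 2 (0.0984). AREG differed by similar amounts in all pairs, at 2.62, 2.22 and 2.65 in log2 CPM, while ETV4 and DUSP6 had pairs of opposite sign.

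With the block, 3 of 16 other ERK target genes were called by edgeR, beside 10.6% of all genes. They were AREG, FOSL1 and SPHK1. FOSL1, an AP-1 subunit, fell from 7.42, 10.5 and 26.8 TPM in CYST to 2.7, 2.44 and 5.95 TPM in MAT (Log2FC of -1.96 ± 0.34, edgeR adjusted p = 0.0173 with the block and 0.131 without). SPHK1, a sphingosine kinase, rose from 14.8, 20.3 and 12 TPM to 36.2, 26.6 and 33.3 TPM (Log2FC of 1.04 ± 0.24, edgeR adjusted p = 0.0352 with the block and 0.0619 without). The ERK target genes called thus included both directions. Of 12 other negative regulators, edgeR called 0 without the block and 3 with it, beside 1.79% and 10.6% of all genes. RASAL1, a RAS GTPase-activating protein, rose with a blocked Log2FC of 1.07 ± 0.25, while PEBP1, a RAF kinase inhibitor, and PEA15, which holds ERK in the cytoplasm, fell with -0.69 ± 0.15 and -0.92 ± 0.20 (edgeR adjusted p = 0.0378, 0.0331 and 0.0311). Without the block their adjusted p-values were 0.134, 0.0766 and 0.0752 in edgeR, and 0.0278, 0.0146 and 0.0142 in DESeq2. DESeq2 without the block also called FOSL1 (adjusted p = 0.0194) and SPHK1 (0.00331). That DESeq2 fit called 1278 of 12074 genes over the whole table, where edgeR called 216.

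Of 9 other ETS factors, EHF, an epithelial member of the family, was the only 1 called. The call was made only with the block, beside 10.6% of all genes. EHF was at 219, 383 and 489 TPM in CYST and 515, 834 and 707 TPM in MAT (Log2FC of 0.95 ± 0.22, edgeR adjusted p = 0.0382 with the block and 0.233 without). All 6 epithelial markers were fitted higher in MAT, with a median Log2FC of 0.64, and with the block edgeR called EPCAM, KRT8 and KRT19. All 8 stromal markers were fitted lower, with a median of -0.68 (-0.77 with the block), and with the block edgeR called DCN (adjusted p = 0.0252). The part of these markers in the pathway values was not tested. Among the 20 genes of the RAS-ERK cascade itself, 0 were called in either fit, the lowest adjusted p being 0.111 without the block and 0.0511 with it. Their fitted values were higher in MAT for 18 of 20 genes, with a median Log2FC of 0.39, where 50.8% of all genes were higher. Without the block 3 of 20 had an unadjusted edgeR p under 0.05, where 20.7% of all genes did. The groups did not overlap for 4 of 20, where 23.7% of all genes did not. Of 4 other dual-specificity phosphatases tested, 0 were called in either fit.

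**Figure D4:**
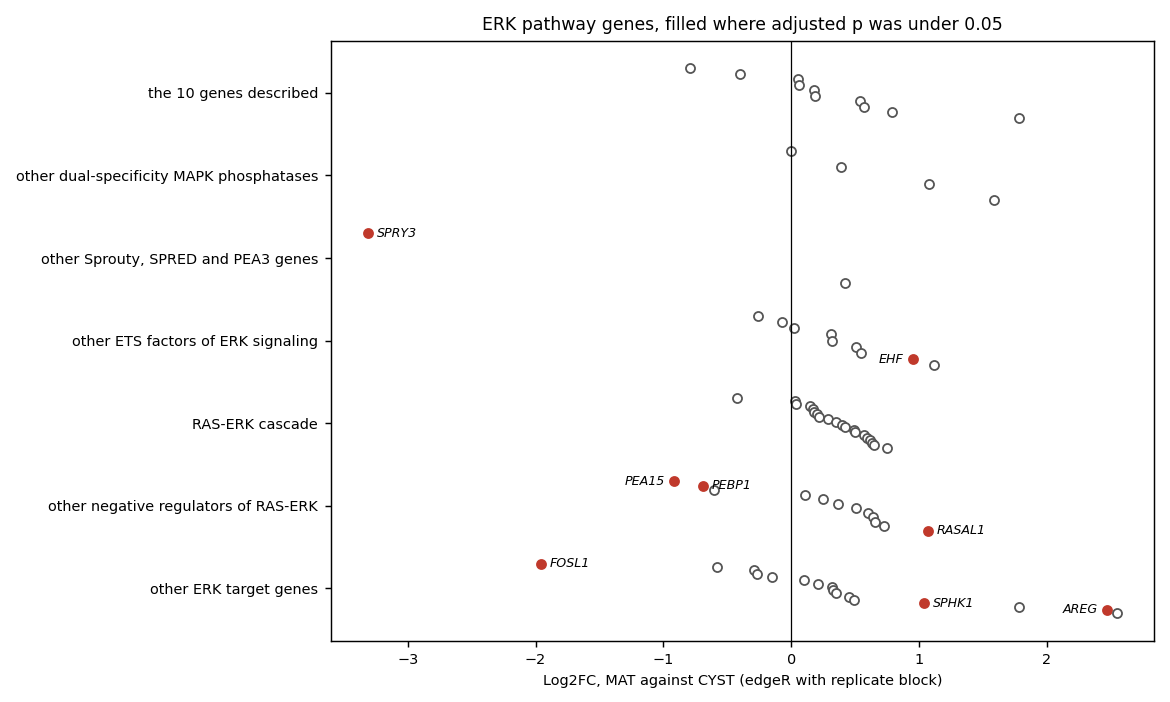
Log2FC of MAT against CYST with the replicate block (horizontal axis) for the 10 genes and for 6 lists of other ERK pathway genes. Each circle is a gene, red and named where its adjusted p in edgeR was under 0.05. The 10 genes hold no red circle, and the 8 red circles lie on both sides of 0.

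With collagen I, edgeR called 0 of 64 other pathway genes against MAT in either fit. Against CYST, edgeR called 0 of 63 without the block, beside 1.49% of all genes, and 4 with it, beside 5.26% of all genes. The 4 were AREG, RASAL1, FOSL1 and SPRY3. AREG was at 115, 82.4 and 42.3 TPM in MAT + COL and had a blocked Log2FC of 2.36 ± 0.25 (edgeR adjusted p = 0.0163 with the block and 0.0545 without). RASAL1 had 1.41 ± 0.22, FOSL1 -1.63 ± 0.29 and SPRY3 -2.92 ± 0.49 (edgeR adjusted p = 0.0312, 0.0373 and 0.0336 with the block, and 0.0707, 0.216 and 0.109 without). DESeq2 without the block called AREG (adjusted p = 1.84e-05), RASAL1 (0.00182) and SPRY3 (0.00619), and gave FOSL1 an adjusted p of 0.0759. DESeq2 also called more genes than edgeR over the whole table in this comparison.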

How the data were processed

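RNA from 9 cultures was sequenced by the study as paired-end reads after SMART-Seq HT PLUS library preparation. After trimming, the authors mapped the reads to ARS-UCD2.0 in CLC Genomics Workbench 25.0.1 at its default settings and deposited raw counts of reads per gene. The authors also deposited TPM of the same genes. The annotation release and the strand setting are not given in the sources used here. Totals are in the report.

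Counts were tested in R 4.3.3 with edgeR 4.0.16 (filterByExpr with a minimum count of 10, TMM and the quasi-likelihood test by glmQLFit and glmQLFTest), using only the 6 libraries compared. The p-values were adjusted by Benjamini-Hochberg over the whole table, with a threshold of 0.05. The SE of a Log2FC was taken as its absolute value over the square root of the F value of the same test. The 95% interval follows from that SE, and both are approximate. Pair differences and correlations used log2 CPM with a prior count of 2, and no member or other gene is a replicate of a group. Groups and replicate numbers came from the sample labels.

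Same-numbered libraries deviated together from their group means, with correlations of 0.329, 0.437 and 0.396 for MAT and CYST, 0.471, 0.613 and 0.687 for MAT + COL and MAT, and 0.278, 0.350 and 0.347 for MAT + COL and CYST. The replicate block is therefore given beside results whose call it changed. In every comparison each library's deviations matched best those of the same-numbered library, in both directions. This pairing comes from the data and the shared numbers, which are those of the sample titles. The library names often carry other numbers.

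All 10 members, the pathway lists and the markers were chosen with earlier results of these data known. The text names all members, the relatives DUSP1, DUSP7, DUSP10, SPRY1, SPRED3 and ETV1, up to 3 called genes with the smallest adjusted p per list, and, as most alike, up to 3 genes of highest Pearson r per member. Alternatives were DESeq2 1.42.0, limma 3.58.1 on log2(TPM + 1) and log2(TPM + 0.1), other normalization and filters, all 9 libraries, the block, and leaving out libraries. DESeq2 with the block was added after the data were seen. Gene positions are those in the deposited tables, and all 10 symbols were also found in RefSeq's table for ARS-UCD2.0. Figures used matplotlib 3.10.9. No reads were realigned.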

Additional observations from a re-analysis of the deposited data

How the results depend on the processing

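How many genes passed the threshold over the whole table depended strongly on the fit, and calls and signs of several of the 10 genes also changed. Between MAT and CYST, where edgeR called 216 genes, DESeq2 called 1278, the replicate block 1277, a fit over all 9 libraries 580, that fit with the block 2118, and DESeq2 with the block 1979. Leaving out a library or a replicate number gave 5 (without CYST replicate 2) to 1867 genes (without number 3, with the block). Between MAT + COL and CYST, where edgeR called 186 genes, the same settings gave 1524, 658, 601, 2035 and 1907, and leaving out gave 3 (without MAT + COL replicate 2) to 2406 (without number 3). Between MAT + COL and MAT, where edgeR called 0, DESeq2 with the block called 1 gene, PHLDA1, and so 1 of the 10 genes, and leaving out gave 0 to 46. The cause was not tested.

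Of the 10 genes, leaving out a library or number gave 0 to 2 called between MAT and CYST, 0 to 1 between MAT + COL and MAT, and 0 to 3 between MAT + COL and CYST, all calls coming without number 3 with the block. No other setting called any of the 10 genes apart from DESeq2 with the block. Without number 3, with the block, 1867 genes were called over the whole table between MAT and CYST, and 2406 between MAT + COL and CYST. In edgeR the replicate block also called the epithelial marker KRT19 between MAT + COL and CYST (adjusted p = 0.0322), and it changed no other call among the members, pathway genes and markers than those given in the report.

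Several fitted values changed sign, most of them near 0 and 1 (DUSP5 between MAT + COL and MAT) from 0.85. SPRY2 between MAT and CYST was 0.05 with the replicate block, 0.00 over all 9 libraries, 0.09 over all 9 with the block, 0.07 in both limma fits and 0.07 in DESeq2 with the block. Between MAT + COL and MAT, ETV4 was -0.09 with the block, -0.01 over all 9 libraries with the block, -0.02 and -0.03 in limma on log2(TPM + 1) and log2(TPM + 0.1), and -0.10 in DESeq2 with the block, while DUSP5 was -0.02 in limma on log2(TPM + 0.1) and -0.05 in DESeq2 with the block. Between MAT + COL and CYST, ETV5 was 0.11 with the block, 0.01 over all 9 libraries, 0.08 and 0.16 in the limma fits and 0.13 in DESeq2 with the block, and SPRY2 was 0.01 in both limma fits.

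Leaving out a library or number also turned signs. Between MAT and CYST the Log2FC ran from -0.31 to 1.41 for DUSP5, -0.32 to 0.69 for DUSP6, -0.32 to 0.32 for SPRY2, -0.89 to 0.13 for SPRY4, -0.35 to 0.65 for SPRED1 and -0.17 to 0.34 for SPRED2. For MAT + COL against MAT it ran from -2.07 to 2.16 for DUSP5, -0.54 to 0.28 for DUSP6, -0.35 to 0.12 for SPRY2, -0.20 to 0.29 for SPRED1, -0.10 to 0.19 for SPRED2 and -0.80 to 0.51 for ETV4. For MAT + COL against CYST it ran from -1.08 to 2.39 for DUSP5, -0.49 to 0.57 for DUSP6, -0.45 to 0.23 for SPRY2, -0.16 to 0.60 for SPRED1, -0.24 to 0.46 for SPRED2, -0.75 to 1.11 for ETV5 and -0.68 to 0.14 for PHLDA1. DUSP4, ETV4, ETV5 and PHLDA1 between MAT and CYST, and DUSP4, SPRY4, ETV5 and PHLDA1 between MAT + COL and MAT, kept their sign under all 18 alternatives.

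AREG passed the threshold between MAT and CYST under 14 of 18 alternatives, with a Log2FC from 2.12 to 2.86, and between MAT + COL and CYST under 10 of 18. The other pathway genes called with the block passed under 4 to 6 of 18 and kept their sign under all. With 3 libraries a group, the low counts of DUSP4 and ETV5 limit the precision of their values, and the 95% intervals of DUSP5 cannot tell a fall from a rise.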
